A study of Caenorhabditis elegans with 2 samples.

Results

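The regions described here are the 3052 regions of RNA polymerase II signal that stood directly below the authors' optimal peak list in N2 larvae at the L3 stage. They are ranks 3053 to 6104 of the 30000 regions that the authors had called on the pooled reads of both replicates, ordered by the pooled signal, and none of them was in the optimal list. They were selected on that signal, so the signal itself and the matches in the replicates, whose reads made up the pool, are given as a description. The other bands of the same list used for comparison are the optimal list, which held exactly the 3052 strongest pooled regions, and the next equal band, ranks 6105 to 9156.

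The assay was ChIP-seq, which sequences the DNA that an antibody pulls down, here one against AMA-1, the large catalytic subunit of the polymerase. The chromatin came from whole L3 larvae, mixed sex, of the Caenorhabditis elegans strain N2, with no mutation, transgene or treatment named. The labels give 2 biological replicates of this 1 group and a size range of 150 to 350 bp. There was no other condition, so no test across samples was possible, and the control experiment to which the labels point was not analysed here. Whole animals mix all tissues, so fewer cells of a type and less polymerase per cell cannot be told apart.

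RNA polymerase II transcribes protein-coding genes and many noncoding ones, and ChIP signal collects where it is slow or frequent, at promoters and beyond the sites where transcripts are cleaved and polyadenylated. In this worm most transcripts receive a spliced leader in place of their own first part, and groups of genes are transcribed together as operons. The annotated 5′ end is therefore often a trans-splice site that lies downstream of the start of transcription.

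Windows of 121 bp around the summit, the highest point of a region, are printed for 9 regions that both replicates ranked high. These are 4 regions at 5′ ends, 3 at 3′ ends, 1 between genes and 1 in an intron. They are examples that do not stand for all the regions of the band, and they avoid annotated untranslated regions. The sequence is RefSeq's WBcel235 assembly, the same as ce11. Gene windows are on the strand of the gene and the last 2 on the plus strand. Capitals mark, on either strand, the poly(A) signal AATAAA, the TATA box TATAAA, the worm's splice acceptor TTTCAG, the GA repeat GAGAGA or the GT repeat GTGTGT. On the other strand these read, in the same order, as TTTATT for the signal, TTTATA for the box, CTGAAA for the acceptor, TCTCTC for the first repeat and ACACAC for the last. The windows upstream of the 5′ ends of nhr-14, a nuclear hormone receptor (chrX:8476375-8476495, minus strand), pitr-1, a phosphate transporter (chrIV:7393927-7394047, plus strand), unc-116, the kinesin heavy chain (chrIII:8355248-8355368, minus strand), and fib-1, the nucleolar protein fibrillarin (chrV:15002249-15002369, minus strand), read as follows.
nhr-14: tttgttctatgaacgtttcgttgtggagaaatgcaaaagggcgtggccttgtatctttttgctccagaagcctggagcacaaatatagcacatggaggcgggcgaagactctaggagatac
pitr-1: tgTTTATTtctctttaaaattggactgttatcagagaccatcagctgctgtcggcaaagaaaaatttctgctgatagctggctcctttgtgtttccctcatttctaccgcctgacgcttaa
unc-116: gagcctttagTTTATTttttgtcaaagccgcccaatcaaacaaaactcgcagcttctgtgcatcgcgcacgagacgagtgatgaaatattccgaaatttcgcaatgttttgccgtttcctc
fib-1: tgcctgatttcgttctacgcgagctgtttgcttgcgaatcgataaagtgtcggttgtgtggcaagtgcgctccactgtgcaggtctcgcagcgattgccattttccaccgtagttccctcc

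The windows beyond the annotated 3′ ends of asp-4, an aspartyl protease (chrX:13218601-13218721, minus strand), nsph-1.1 (chrII:8769563-8769683, plus strand) and nck-1, a signalling adaptor (chrX:4148256-4148376, minus strand), and the windows between genes (chrX:6255907-6256027) and in an intron of T28B11.1 (chrV:10719047-10719167) follow. GC content in these 9 windows ran from 19% at nck-1 to 57.9% at nsph-1.1. The windows of nsph-1.1 and of T28B11.1 hold GA repeats, and that of nck-1 holds the poly(A) signal on both strands.
asp-4: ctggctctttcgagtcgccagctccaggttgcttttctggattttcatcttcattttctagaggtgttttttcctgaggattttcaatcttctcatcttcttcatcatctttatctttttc
nsph-1.1: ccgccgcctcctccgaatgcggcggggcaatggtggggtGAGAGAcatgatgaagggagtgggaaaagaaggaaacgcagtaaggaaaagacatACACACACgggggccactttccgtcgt
nck-1: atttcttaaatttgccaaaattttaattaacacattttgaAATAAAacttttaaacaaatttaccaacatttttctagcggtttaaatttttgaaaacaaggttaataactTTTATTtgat
X intergenic region: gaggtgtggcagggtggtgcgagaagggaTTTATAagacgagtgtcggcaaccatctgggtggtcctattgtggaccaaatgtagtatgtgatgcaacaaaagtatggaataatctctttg
T28B11.1 intron: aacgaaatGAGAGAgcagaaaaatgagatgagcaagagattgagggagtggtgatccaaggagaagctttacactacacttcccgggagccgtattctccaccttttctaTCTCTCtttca

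Pooled signal in the 3052 regions ran from 57.9 down to 41.5 with a median of 48, against a median of 79.2 in the optimal list and 36.9 in the next band. The signal is the authors' value, and its scale is not stated. The limits of the band are not gaps: rank 3053, in R08E5.4, had a signal of 57.91 and rank 3052, in micu-1, 57.92, while rank 6104, in F38B7.3, had 41.49 and rank 6105, between genes on chromosome IV, 41.48. The authors' −log10 q value ran from 2.96 to 1.63, with a median of 2.05. Of the regions, 3051 were 320 bp wide and 1 was 103 bp wide. Together they covered 973 kb, or 0.970% of the 6 chromosomes. The depth of the libraries is unknown, and a gene without a summit is one at which none was found in these ranks, not one without polymerase.

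Most of the regions were separate from optimal ones. The median distance to the nearest optimal summit was 3045 bp. Within 1000 bp of an optimal summit lay 689 regions (22.6%), within 500 bp 200 (6.55%) and within 200 bp 18.

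Gene ends held a smaller share of these regions than of the optimal list. A summit within 500 bp of an annotated protein-coding 5′ end was found for 969 regions (31.7%, exact Clopper-Pearson 95% interval 30.1 to 33.4%), against 1123 optimal regions (36.8%) and 866 regions of the next band (28.4%). Such positions make up 18.8% of all bases. The difference from the optimal list was -5.05 points (adjusted p = 1.5e-04) and that from the next band 3.37 points (adjusted p = 0.0132), by two-sided Fisher's exact tests adjusted over 12 comparisons. Regions were the units of these tests, not replicates, and neighbouring regions are not independent. By the same exact test, the difference from the next band missed 0.05 with windows of 250 bp (adjusted p = 0.0595) or 1000 bp (0.134) and when each summit counted for its nearest gene end only (0.0504). The difference from the optimal list missed it in the exact test when the bands were ranked in replicate 1 alone (-2.10 points, adjusted p = 0.139).

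The share at a 3′ end and no 5′ end was also lower than in the optimal list, while exons held more. At a 3′ end only lay 467 regions (15.3%), against 601 optimal regions (19.7%) and 469 of the next band (15.4%). The difference from the optimal list was -4.39 points (adjusted p = 4.4e-05, Fisher's exact test), which missed 0.05 with a window of 1000 bp (-1.44 points, 0.223). The difference from the next band was -0.0655 points (0.972). Exons away from gene ends held 566 regions (18.5%), against 375 optimal regions (12.3%) and 622 of the next band (20.4%). This was 6.26 points above the optimal list (adjusted p = 1.7e-10, Fisher's exact test), while the difference from the next band was -1.83 points (0.129).

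The share in introns was higher in each lower band, up to 24.2% in the regions below the next band, while the share between genes changed little. Introns away from gene ends held 578 regions (18.9%), against 503 optimal regions (16.5%, adjusted p = 0.0314, Fisher's exact test) and 626 of the next band (20.5%, 0.196). By the same exact test, the difference from the optimal list, 2.46 points, missed 0.05 in the upper ranks of the band, taken alone (adjusted p = 0.0952) and in those over 1000 bp from an optimal summit (1.97 points, 0.0936). Between genes lay 472 regions (15.5%), against 450 optimal regions (14.7%) and 469 of the next band (15.4%), and neither difference passed the test. In all bases, introns take 27.1% and the space between genes 25.6%, so all 3 bands held less there than those shares.

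**Figure D1:**
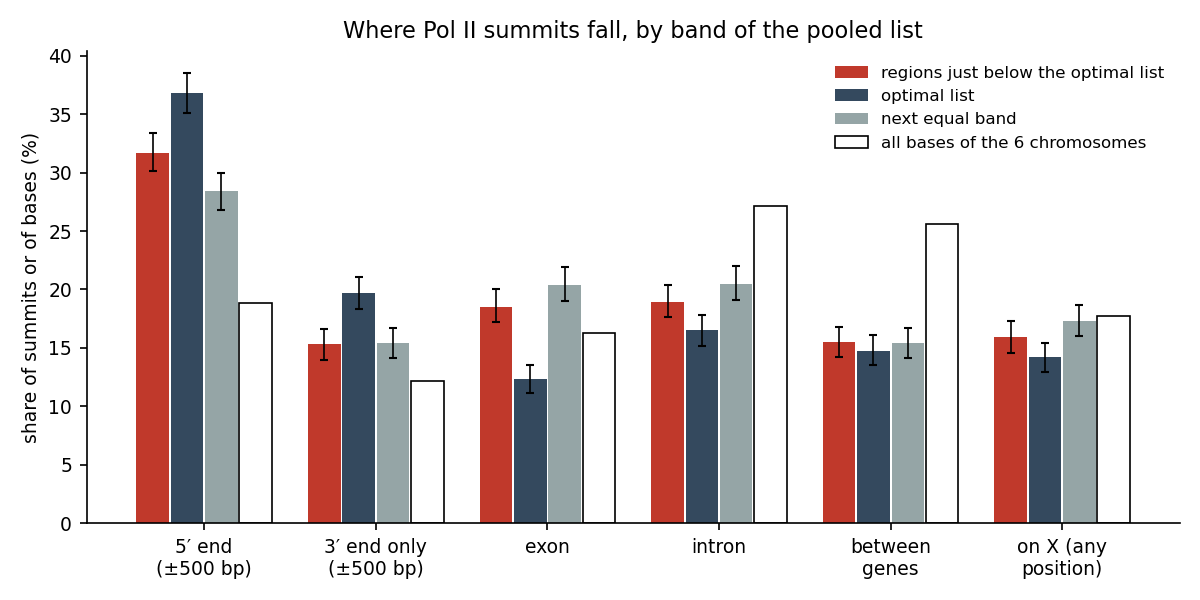
Share of summits (%, with exact 95% intervals) in 5 exclusive classes of position and on chromosome X for the regions just below the optimal list, the optimal list and the next equal band, beside the share of all bases. At 5′ ends the bands read 31.7%, 36.8% and 28.4%, and in exons 18.5%, 12.3% and 20.4%.

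The placement of summits around the ends differed more by end than by band. Around 5′ ends the summits spread over both sides, with a median of -9 bp in the direction of the gene and 51.7% upstream, against -61 bp and 57.0% upstream in the optimal list and 19 bp and 46.4% in the next band. Around 3′ ends the median was 155 bp beyond the end and 71.9% lay downstream, against 155 bp and 77.0% in the optimal list and 143 bp and 69% in the next band. From 50 bp before a 3′ end to the end itself lay only 8 summits, and from 100 to 150 bp beyond it 93. Windows of 2 genes often overlap: 323 regions (10.6%) were within reach of both a 5′ and a 3′ end, against 464 optimal regions (15.2%), and 113 (3.70%) were within reach of 5′ ends on both strands, against 152 (4.98%).

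**Figure D2:**
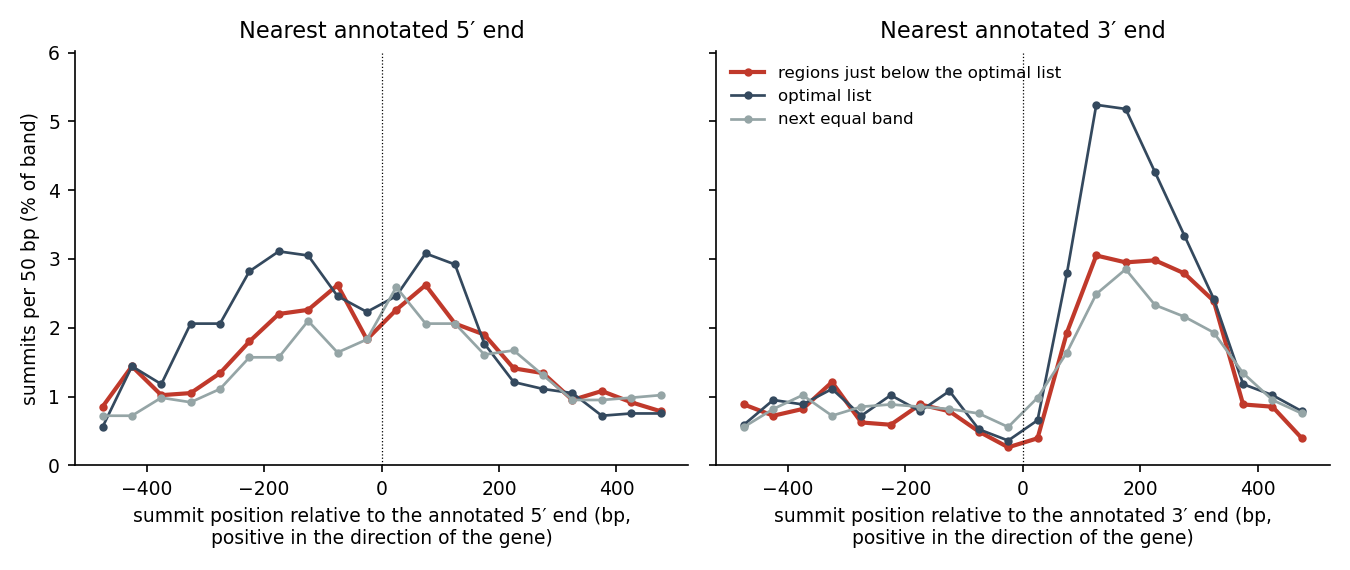
Summits per 50 bp, as a percentage of each band, by position relative to the nearest annotated 5′ end (left) and 3′ end (right), in bp and positive in the direction of the gene. In the regions just below the optimal list, summits rise beyond the 3′ end to 3.05% of the band at 100 to 150 bp, where the optimal list reaches 5.24%.

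A permissive match in both replicates was the rule, and a high rank in both was rare. A summit within 200 bp was found in the list of 30000 regions of replicate 1 for 3007 regions (98.5%) and in that of replicate 2 for 2571 (84.2%). Both lists had one for 2530 regions (82.9%, interval 81.5 to 84.2%), against 2806 optimal regions (91.9%), 2268 regions of the next band (74.3%) and 7477 of the 20844 regions below that (35.9%). Bases within 200 bp of a summit of both replicate lists are 5.30% of the genome. Replicate 1 alone matched 477 regions, replicate 2 alone 41, and neither list matched 4. In 4 equal parts of the band, from the strongest to the weakest, both lists matched 86.9%, 84.4%, 79.9% and 80.3%.

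The median rank of the matches was 4957 in replicate 1 (10th to 90th percentile 2644 to 9856) and 6212 in replicate 2 (1829 to 18801). Among the strongest 3052 regions of a replicate were 497 regions (16.3%) in replicate 1 and 589 (19.3%) in replicate 2. Only 30 regions (0.983%) were among the strongest 3052 of both, against 1340 optimal regions (43.9%), and 1996 (65.4%) were in neither. With 200 bp, 18.6% of the regions (567) ranked within the strongest 6104 of both lists, against 69.4% of the optimal regions.

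**Figure D3:**
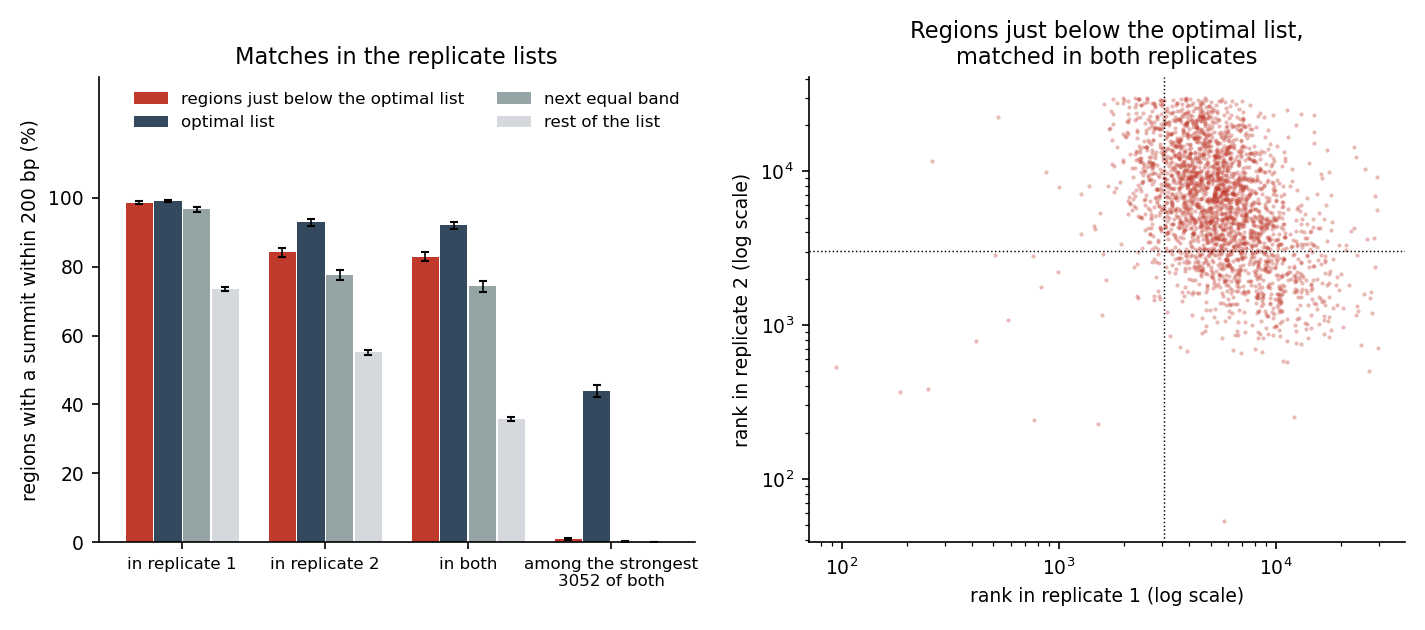
Left, share of each band (%, with exact 95% intervals) with a summit within 200 bp in the replicate lists, and among the strongest 3052 of both lists. Right, rank in replicate 1 against rank in replicate 2 (log scales) for the 2530 regions matched in both, with dotted lines at rank 3052; only 30 regions lie in the corner below both lines.

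Replicate 2 matched the kinds of region unequally. Matches in both lists were found for 85.6% of the regions at 5′ ends, 83.1% of those at 3′ ends only, 83.9% in introns, 81.1% in exons and 78.2% between genes. Among the strongest 3052 of replicate 2 were 22.4% of the regions at 5′ ends and 24.6% of those at 3′ ends only, but 14% of those between genes. In replicate 1 the order was different, with 13.1% at 5′ ends, 16.7% at 3′ ends only, 19.8% in exons and 19.5% between genes. In replicate 2 the share between genes was also below those at gene ends in the other bands. At 5′ ends, at 3′ ends only and between genes it was 62.1%, 62.4% and 54.2% in the optimal list. In the next band it was 10.4%, 13.6% and 5.54%. Chromosome X had 486 regions (15.9%), against 432 optimal regions (14.2%, adjusted p = 0.115, Fisher's exact test) and 529 of the next band (17.3%, 0.198). Its regions were matched in both lists in 77.2% of cases, and those of the other chromosomes in 81.5 to 85.3%. Chromosome X was also lowest in the optimal list (89.1%, others 90.7 to 94.3%) and in the next band (69.4%, others 74.7 to 77.3%). Density ran from 21.6 regions per Mb on chromosome V to 40.6 on chromosome III.

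The regions that stood highest in both replicates while low in the pool were chosen after their values were seen. A region between genes on chromosome X (summit 6255967) ranked 185 in replicate 1 and 369 in replicate 2, but 4738 in the pooled list. A region in an intron of mnk-1, a MAP kinase-interacting kinase, ranked 249 and 384, and 4728 in the pooled list. A region inside hsp-16.41, a small heat shock protein with near-identical paralogs that could share its reads, ranked 94 and 531, and 3862 in the pooled list. A replicate summit could be the match of more than 1 pooled region, so these ranks may be shared with a nearby optimal region. Whether they were was not checked, and mnk-1 held 18 optimal regions. Other regions were matched in both replicates but ranked far higher in 1 of them. One 346 bp upstream of hmg-6, over the small nucleolar RNA gene F47G4.9, ranked 53 in replicate 2 and 5782 in replicate 1. One in an intron of hpd-1 ranked 261 in replicate 1 and 11693 in replicate 2. A region at the 3′ end of cts-1, citrate synthase, ranked 199 in replicate 2 and had no match in replicate 1.

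The regions added 958 protein-coding genes at the 5′ end, or 5.11% of the 18760 genes without an optimal summit there. Of 19973 genes, 2171 (10.9%) had such a summit with these regions included, against 1213 (6.07%) with the optimal list alone. At the 3′ end they added 851 genes, or 4.52% of the 18812 without one, which made 2012 genes (10.1%), against 1161 with an optimal summit alone (5.81%). Each of these counts follows in part from 1 summit counting for several genes: 874 regions added a gene at the 5′ end and 694 at the 3′ end. The next band on its own reached 870 (4.64%) and 851 (4.52%) of the same genes. From equally many regions, the yield was thus higher than that of the next band at the 5′ end (958 against 870) and equal at the 3′ end. The difference in genes was not tested. With a window of 250 bp the genes added at the 3′ end were 503, and with each summit counted for its nearest end only 516.

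Either end was added for 1647 genes and both ends for 162. Of the genes added, 1350 had no optimal summit at either end, and 1272 had none in the body either. The other end was already in the optimal list for 164 genes added at the 5′ end and for 133 added at the 3′ end. Another 100 genes had an optimal summit at the 5′ end and were reached there again, and 133 at the 3′ end. A region matched in both replicates stood behind 842 (87.9%) of the genes added at the 5′ end and 752 (88.4%) of those added at the 3′ end.

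The 12 genes added at the 5′ end with the strongest pooled signal lay between 57.5 and 57.9, at the top of the band by construction. They include ints-8, a subunit of the Integrator complex, mmcm-1, methylmalonyl-CoA mutase, dpy-30, a subunit of histone methyltransferase complexes that also serves dosage compensation, kars-1, lysyl-tRNA synthetase, and nuo-2 of respiratory complex I. The summit of ints-8 lay 63 bp upstream of the 5′ end and ranked 6146 in replicate 1 and 1353 in replicate 2. That of dpy-30 lay 326 bp upstream and ranked 5073 and 2229. The summit of mmcm-1 lay 316 bp inside the gene, ranked 1811 in replicate 1 and had no match in replicate 2. The others were C37C3.18, C44C11.6, nono-1, mrps-6, cisd-1, F23B12.7 and rad-54.B, each matched in both.

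Another 12 genes added at the 5′ end are those whose region ranked highest in the replicate where it ranked lower. The region of nhr-14 had a pooled signal of 56.2, a summit 257 bp upstream and ranks of 2702 in replicate 1 and 2587 in replicate 2. It also overlaps the noncoding RNA gene T01B10.13, so the signal could not be assigned to 1 of the genes. The region of rpn-10, a ubiquitin receptor of the proteasome, had a signal of 49.9, a summit 151 bp inside the gene and ranks of 2756 and 2669. That of pitr-1 had a signal of 56.4, a summit 98 bp upstream and ranks of 2899 and 1549. The regions of unc-116 (signal 56.5, 134 bp upstream, ranks 2409 and 3178) and fib-1 (signal 51.2, 86 bp upstream, ranks 3329 and 2897) also lay upstream. The region of col-130, a cuticle collagen, lay 215 bp inside the gene with a signal of 50.8 and ranks of 3157 and 1212. That of let-70, a ubiquitin-conjugating enzyme, lay 44 bp inside with a signal of 47.3 and ranks of 3435 and 2701. The remaining genes were ztf-8, Y45G12B.2, pgph-3, T01H3.2 and C37C3.18.

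Of the 10 genes added by regions at a 3′ end only with the highest such ranks, 8 had the summit beyond the end. The region of asp-4 had a pooled signal of 53.0, a summit 324 bp beyond the end, inside the converging gene R12H7.4, and ranks of 2310 in replicate 1 and 1508 in replicate 2. That of nsph-1.1 had a signal of 46.2, a summit 201 bp beyond the end and ranks of 2865 and 2878. That of nck-1 had a signal of 54.1, a summit 332 bp beyond the end and ranks of 1607 and 2892. The region of kin-10, the regulatory subunit of casein kinase II, lay 85 bp beyond the end with a signal of 53.2 and ranks of 2717 and 3779. The region of mdt-27, a Mediator subunit, lay 199 bp beyond the end with a signal of 50.2 and ranks of 3788 and 4068. Those of F46C5.10 and sms-1, sphingomyelin synthase, lay inside the gene, and frm-4, C28H8.2 and R07E5.11 complete the set.

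Several lists of protein synthesis and turnover were added more often than the 5.11% of all genes, while the aminoacyl-tRNA synthetases, at 1 of 27 (3.70%), and the lysosomal proteases, at 0 of 26, were not. Replicate 1 alone added 3 of 29 synthetase genes and replicate 2 alone 2 of 28, and replicate 2 alone added 4 of 26 lysosomal proteases. The values are descriptions of lists that were chosen with earlier results known, with no test of a list. Of the 42 lists, 26 lay above the share of all genes at the 5′ end, and 4 had no gene added there. A list above that share was therefore the usual case. The share of all genes differs by setting. At the 5′ end it was 5.07% in replicate 1 alone, 5.23% in replicate 2 alone and 3.59% with 250 bp. At the 3′ end it was 4.52% in the pooled ranks, 3.91% and 5.45% in the 2 replicates alone and 2.62% with 250 bp. Of the 32 genes of cytosolic ribosomal proteins without an optimal summit at the 5′ end, 16 gained one. With them 66 of the 82 genes had a summit there, against 50 with the optimal list alone. The strongest were rps-7, with a signal of 57.2, a summit 200 bp upstream and ranks of 3880 in replicate 1 and 4485 in replicate 2, and rpl-17, with 56.6, 379 bp upstream, 7365 and 1451. These genes are short, and the count rests on the window: with 250 bp, 10 of 73 (13.7%) were added, against 688 of 19160 genes in all (3.59%). Of the 70 genes of mitochondrial ribosomal proteins, 10 of 60 (16.7%) were added, all of them by a region matched in both replicates. Of all genes added at the 5′ end, 87.9% had such a region. Of the translation initiation factors, 5 of 31 (16.1%) were added: eif-3.D, eif-2beta, eif-3.B, ifg-1 and eif-2A. The summit of eif-3.D lay 289 bp upstream of its 5′ end but 25 bp from that of R08D7.4. Of the elongation factors, eef-1B.2 was the 1 gene that still lacked a summit there and it gained one (signal 46.8, ranks 5571 and 5286).

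Of the 23 genes of the proteasome, the cell's main protease, without an optimal 5′ summit, 9 (39.1%) gained one: pas-4, rpn-6.1, rpn-10, rpn-8, pas-6, pas-7, pas-3, pas-1 and rpt-2. The region of pas-4 had a signal of 56.8, a summit 73 bp upstream and ranks of 5146 in replicate 1 and 4961 in replicate 2. It lies between 5′ ends on opposite strands, and the same region counted for rpb-3, a subunit of RNA polymerase II, 204 bp away. The summit of rpn-6.1 lay 87 bp upstream of its 5′ end but 2 bp from that of F57B9.1. With the bands ranked in replicate 1 alone the 5′ count of the list was 14 of 26, and in replicate 2 alone 10 of 27. At the 3′ end 8 of 22 (36.4%) were added, against 4.52% of all genes, and 3 of 26 (11.5%) with a window of 250 bp, against 2.62%. With each summit counted for its nearest end only, 1 of 28 (3.57%) was added there, against 2.68% of all genes. At the 5′ end that setting gave 6 of 27 (22.2%), against 4.05%. At either end, 12 of the 17 proteasome genes with no optimal summit at any end (70.6%) gained one. Genes of the vacuolar ATPase, which acidifies lysosomes, were reached mainly at the 3′ end, with 7 of 14 genes there and 2 of 10 at the 5′ end, vha-12 and vha-13. The 3′ count was 5 of 14 in replicate 1 alone and 3 of 12 in replicate 2 alone, where the 5′ count was 4 of 12. With a window of 250 bp the 3′ count was 4 of 15.

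Energy metabolism was added in the same range. Of the genes of oxidative phosphorylation, 10 of 39 (25.6%) were added, all 10 with a region matched in both replicates; the strongest were nuo-2 (signal 57.6, 154 bp upstream, ranks 4125 and 3205) and sdhd-1 (signal 51.8, 196 bp upstream, ranks 3070 and 20711). Of the TCA cycle, 3 of 12 were added, idhg-1, dlst-1 and mdh-2, and 5 of 12 in replicate 2 alone. Of glycolysis, 5 of 12 (41.7%) were added at the 5′ end and none of 10 at the 3′ end. These were enol-1, tpi-1, pgk-1, aldo-1 and hxk-2, with signals of 50.2, 47.9, 47.5, 45.2 and 43.5. The strongest regions of aldo-1 and hxk-2 had no match in replicate 2, and in that replicate alone 3 of 11 glycolytic genes were added. The summit of hxk-2 lay nearer the 5′ end of cdk-9, 163 bp away.

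The lists of splicing and transcription factors were added above the share of all genes at the 5′ end. Of the splicing factors, 11 of 44 were added, against 10 of 54 with an optimal 5′ summit. A region matched in both replicates stood behind 87.9% of all genes added there and behind each of these 11. They include prp-40 (signal 51.9, 125 bp upstream, ranks 10475 and 1029) and snr-1 (signal 51.6, 342 bp upstream, ranks 7627 and 1924), which both ranked higher in replicate 2. The summit of snr-1 lay nearer the 5′ end of snx-13, 269 bp away. In replicate 2 alone, 6 of 40 were added. Of RNA polymerase II subunits and general transcription factors, 10 of 50 were added, against 6 of 56 in the optimal list. They include tbp-1, the TATA-binding protein (signal 56.4, 114 bp inside, ranks 5091 and 2943). The gene of the precipitated subunit, ama-1, had no region in these ranks: its strongest pooled region ranked 10520, with a signal of 30.7 and a summit 239 bp inside the 5′ end. Of the chromatin factors, 11 of 79 (13.9%) were added, with spr-1 and swsn-3 the strongest. Replicate 1 alone added 6 of 77 of them. Of the Mediator subunits, 2 of 24 (8.33%) were added, against 5 of 29 in the optimal list, and replicate 2 alone added 4 of 23.

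Vesicle traffic, chaperones and autophagy were also added above the share of all genes. Of the genes of vesicle traffic, 16 of 96 (16.7%) were added, with aps-3, an adaptor subunit, the strongest, by the same region as rpl-17. Of heat shock proteins and chaperones, 5 of 41 (12.2%) were added: hsp-4, the endoplasmic reticulum chaperone BiP (signal 56.6, 489 bp inside, ranks 2711 and 16069), cct-3, cdc-37, and the mitochondrial chaperones hsp-60 and hsp-6. With a window of 250 bp 3 of 49 were added. Of the autophagy genes, 4 of 20 were added, unc-51, epg-8, epg-5 and atg-2, but 2 of 24 in replicate 2 alone. The kinase gene unc-51 had a signal of 57.5, a summit 11 bp inside the gene and ranks of 2389 and 9885, while atg-2 had no match in replicate 2. Of the factors that process 3′ ends of transcripts, 4 of 16 were added, cfim-1, cids-2, pap-1 and pab-2, and cids-2 and pab-2 had no match in replicate 2.

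The lists of body wall muscle and of the cell cycle were added at 5′ ends more often than all genes. At 3′ ends 2 of 43 genes of the muscle list (4.65%) and 1 of 59 of the cell cycle list (1.69%) were added. Of 47 genes listed as body wall muscle structure, 1 had an optimal 5′ summit. Of the other 46, 9 (19.6%) were added: unc-15, mlc-3, pat-10, unc-22, ttn-1, cpn-3, atn-1, mlc-4 and unc-70. Membership rests on the list alone, for mlc-4 and unc-70 as well, and expression in muscle was not tested. The region of unc-15, paramyosin, had a signal of 52.8, a summit 150 bp inside the gene and ranks of 4773 in replicate 1 and 3610 in replicate 2. That of mlc-3, a myosin light chain, had a signal of 50, a summit 86 bp inside and ranks of 2570 and 9390. For 7 of the 9 the summit lay inside the gene, and that of ttn-1 had no match in replicate 2. Each replicate ranked alone added fewer, 5 of 44 (11.4%) in replicate 1 and 5 of 46 (10.9%) in replicate 2, and a window of 250 bp gave 5 of 47 (10.6%). Of the genes of cell cycle and DNA replication, 9 of 57 (15.8%) were added, against 4 of 61 in the optimal list. They were hcp-3, the centromeric histone H3 variant (signal 57.3, ranks 4810 and 6541), orc-2 (53.0, ranks 4098 and 2871), cdc-14, mcm-4, orc-3, knl-3, mdf-2, mcm-2 and orc-1. In replicate 2 alone the count was 5 of 56.

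Heterochronic genes, which time the larval stages, were added at both ends. At the 5′ end 3 of 17 (17.6%) were added: blmp-1 (signal 50, 369 bp upstream, ranks 9161 and 1791), kin-20 (42.8, 169 bp upstream, ranks 6732 and 11322) and lin-66 (41.8, 236 bp upstream, ranks 7305 and 3165). At the 3′ end 5 of 19 (26.3%) were added. These were lin-28, an RNA-binding protein (signal 55.9, 156 bp beyond the end, ranks 3917 and 5316), nhl-2 (52.9, 480 bp before the end, ranks 4728 and 2164), daf-12, a steroid receptor (48, 201 bp beyond, ranks 7261 and 4786), hbl-1 (45.4, 395 bp before the end, rank 3498 in replicate 1 and no match in replicate 2) and lin-14 (42, 152 bp beyond, ranks 6798 and 25224). The summit of the daf-12 region lay inside a tRNA gene and the noncoding RNA gene F11A1.11. Its signal could therefore not be assigned to 1 of these genes. Of the 16 heterochronic genes with no optimal summit at any end, 8 gained one.

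Large families of receptors and tissue genes were added mostly at or under the share of all genes. The lists named moulting and pharyngeal lay slightly above it in the pooled ranks. In replicate 2 alone they lay below it, at 2.30% and 1.52%, against 5.23% of all genes. Of the chemoreceptors, 2 of 1359 (0.147%) were added at the 5′ end, str-141 and srlf-7, and 10 (0.736%) at the 3′ end. Of the F-box and MATH-BTB families, 2 of 409 (0.489%) were added, bath-39 and bath-40, and of C-type lectins and lysozymes none of 253. Of the nuclear hormone receptors, 11 of 260 (4.23%) were added, and 7 of 265 in replicate 2 alone. Of the cuticle collagens, 7 of 155 (4.52%) were added, col-54, col-41, col-130, dpy-3, dpy-2, col-71 and col-149, against 20 of 175 in the optimal list. With 250 bp it was 3 of 160, while replicate 1 alone added 9 of 158 (5.70%) and replicate 2 alone 10 of 157 (6.37%). Of the moulting genes, 5 of 82 (6.10%) were added: mlt-11, grd-4, nhr-23, lpr-4 and lpr-5, but 2 of 87 in replicate 2 alone and 3 of 83 with 250 bp. Of the list named pharyngeal, 5 of 68 (7.35%) were added, but 3 of 67 in replicate 1 alone and 1 of 66 in replicate 2 alone. The 5 were all pqn genes, pqn-20, pqn-32, pqn-68, pqn-21 and pqn-67, and their expression in the pharynx was not tested. Of those without an optimal summit, 3 neuronal genes (2.42%), 3 neuropeptide genes (2.13%), 3 intestinal genes (3.70%), 3 germ line genes (4.29%) and 1 sperm gene (1.06%) were added. The summits of the 3 germ line genes, rad-50, puf-12 and syp-2, each lay nearer the 5′ end of another gene. With each summit counted for its nearest end only, 0 of 72 germ line genes were added. Replicate 2 alone added 6 chemoreceptors, 5 F-box or MATH-BTB genes, 2 lectin or lysozyme genes, 5 neuropeptide genes, 1 intestinal gene and 2 sperm genes at the 5′ end. Replicate 1 alone added 5 F-box or MATH-BTB genes, 1 lectin or lysozyme gene and 1 neuropeptide gene there, and 5 chemoreceptors at the 3′ end. No histone gene of 75 and no vitellogenin gene of 6 was added at the 5′ end, though replicate 2 alone added 2 histone genes; histone genes have near-identical copies among which reads can be split.

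**Figure D4:**
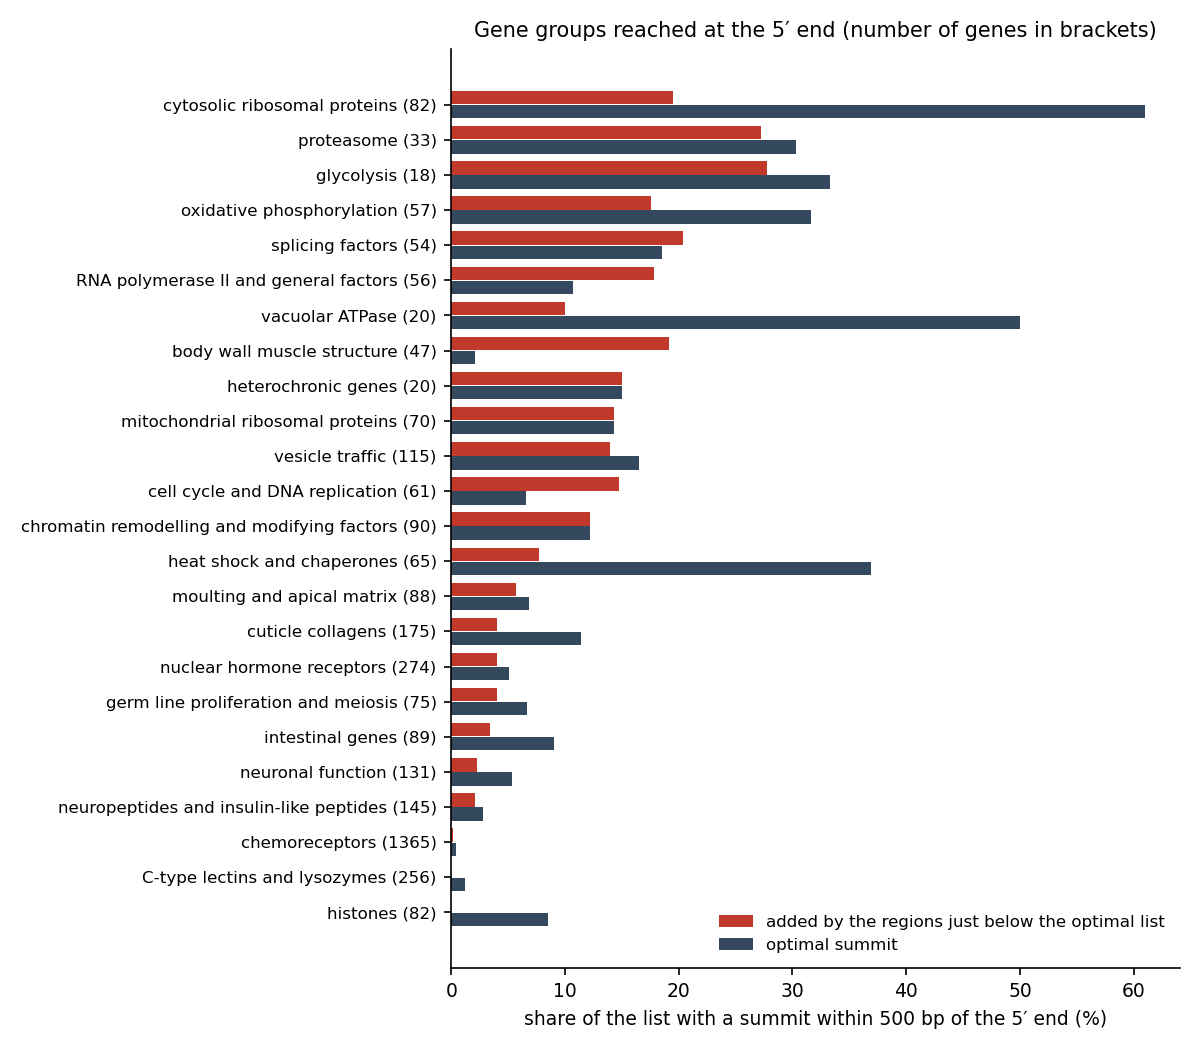
Share of each gene list (%) reached at the 5′ end, window 500 bp, added by the regions just below the optimal list (upper bar) and with an optimal summit (lower bar), with the number of genes in brackets. The body wall muscle list stands at 9 added genes beside 1 optimal gene, and cytosolic ribosomal proteins at 16 beside 50.

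Of the other lists, 3 of 21 genes of ubiquitin conjugation were added at the 5′ end, 2 of 15 of actins and tubulins, 3 of 20 of dosage compensation and sex determination, 2 of 28 of the insulin and TGF-beta dauer pathways, 1 of 46 of the Hox, Wnt and Notch pathways and 2 of 185 detoxification enzymes. In replicate 1 alone 7 of 23 ubiquitin conjugation genes, 4 of 16 actins and tubulins and 2 of 46 of the Hox, Wnt and Notch pathways were added. Replicate 2 alone added 1 of 17 actins and tubulins (5.88%), 1 of 26 of the dauer pathways (3.85%) and 1 of 187 detoxification enzymes (0.535%), against 5.23% of all genes.

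Noncoding genes were added in shares that differed by class. Small nucleolar RNA genes had 26 of 248 (10.5%) added at the 5′ end, snRNA genes 8 of 99 (8.08%), tRNA genes 41 of 568 (7.22%) and miRNA genes 15 of 220 (6.82%). The classes annotated as ncRNA (385 of 7292, 5.28%), antisense RNA (5 of 97, 5.15%) and lincRNA (9 of 185, 4.86%) lay near the share of protein-coding genes. Of piRNA genes, 147 of 15222 (0.966%) were added, by 65 regions, of pseudogenes 8 of 2115 (0.378%), and of rRNA genes 0 of 20, a share of 0%. Transfer RNA, snRNA and rRNA genes have near-identical copies, so their values are uncertain, and a noncoding gene can share a region with a protein-coding end, as did 6 of the 8 regions at snRNA genes, 8 of 27 at snoRNA genes, 10 of 36 at tRNA genes, 4 of 15 at miRNA genes, 4 of 9 at lincRNA genes, 3 of 6 at antisense RNA genes and 6 of 8 at pseudogenes. The noncoding gene with the best ranks was T28B11.24, with ranks of 1642 in replicate 1 and 1969 in replicate 2, and its region, 454 bp upstream, lies in the intron of T28B11.1. The miRNA gene cel-mir-4920 had a region 220 bp upstream, with a signal of 52.3 and ranks of 3590 and 2548. Of the 472 regions between genes, 111 (23.5%) lay within 500 bp of the 5′ end of a noncoding gene other than piRNA genes and pseudogenes.

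The 1144 regions in exons or introns away from gene ends lay in 760 genes with a median length of 5228 bp, against 2027 bp for all protein-coding genes. Genes too short to have bases away from both ends cannot hold such a region, so this difference follows in part from the definition. Of these genes, 332 had no optimal summit at an end or in the body. Counting the body and 500 bp on either side, 1786 genes held 1 region, and 576 held more. The genes with the most were fkh-7, a forkhead factor, and vhp-1, a MAP kinase phosphatase, with 10 regions each beside 4 and 2 optimal ones. The insulin-pathway factor daf-16 held 8 beside 2 optimal ones, lin-14 held 7 beside 11, and pek-1, the endoplasmic reticulum stress kinase, held 7 beside 1 in a gene of 4712 bp. Genes that overlap one of these can share the count.

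GC content and GA repeats under the summits lay between those of the optimal list and the next band. In windows of 201 bp, GC content averaged 41.4% ± 5.84 (SD across regions), against 43% ± 5.82 in the optimal list, 40.7% ± 5.99 in the next band and 35.4% ± 7.25 in windows taken every 1000 bp of the genome. Windows that were mostly repeat-masked made up 7.04% of the regions, against 5.60% of the optimal list and 8.78% of the next band. Searched on both strands, GAGAGA was found in 23.3% of the regions, against 27.2% of the optimal list, 20.9% of the next band and 10% of the genome windows. GTGTGT was found in 12.8%, against 16.9%, 12.2% and 6.59% of the same. Among the regions both repeats were most frequent between genes and in introns: GAGAGA was in 36% of the regions between genes and 28% of those in introns, against 22.7% at 5′ ends, 17.3% at 3′ ends only and 14% in exons. AATAAA was found in 28.6%, against 25% of the optimal list, 27.9% of the next band and 38.2% of the genome windows. TATAAA was found in 12.8%, against 11.9%, 14.2% and 21.1% of the same, and TTTCAG in 28.6%, against 25.5%, 31% and 35.9%. These motifs move with base composition, and their part in the signal was not tested.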

How the data were processed

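For each of the 2 replicates and for the pooled reads the authors deposited a permissive narrowPeak list, and for the pool an optimal list as well, in builds ce10 and ce11. The ce11 lists were used, with the permissive ce10 lists only for 1 alternative on replicate matches. The ce10 optimal list, the control experiment and the notes files were not used here. Column 7 of the deposited lists is a signal value that is never negative, on a scale set by the authors and comparable only within a list. Column 9 of the deposited lists is a −log10 q value, which was only described. Column 10 of the deposited lists is the summit's distance from the region's start, counted from 0. The aligner, peak caller, filters and IDR threshold (irreproducible discovery rate) were not given in the sources used here. Regions called on pooled reads can follow the deeper library, and the depth of each library is unknown.

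Pooled regions were ranked by signal, and a summit within 500 bp of a protein-coding gene's annotated end (Ensembl release 115, WBcel235) counted for that gene. Such a summit counted also where the end of another gene lay nearer, as for several of the genes named. A region at a 5′ end was not counted again at a 3′ end, and the rest were called exon, intron or between genes. A replicate match was the nearest summit within 200 bp, and the same summit could match several regions. Intervals of shares are exact 95% ones after Clopper and Pearson and cover counting error only. Shares were compared by two-sided Fisher's exact tests with Benjamini-Hochberg adjustment over 12 tests at 0.05 (SciPy 1.17.1, Python 3.11.15). The steps were tested on simulated data.

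The members, the 42 gene lists and the tests were chosen with earlier results of these data known. Genes named are the 12 added at the 5′ end with the highest pooled signal, the 12 with the best worse replicate rank, the 10 so ranked at 3′ ends only, up to 5 of each list described, and ama-1. Of the 6 noncoding genes the rule names, 3 are printed. Regions highest in 1 or both replicates, the genes with the most regions and the full rosters of some lists were named after their values were seen. Other windows, distances, parts of the band and each replicate ranked alone were tried as alternatives. A list kept to regions matched in both replicates was added after seeing the data.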

Additional observations from a re-analysis of the deposited data

How the results depend on the processing

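The bands were redrawn with 1 choice changed at a time, and differences are shares in points of these regions minus those of the other band. At the 5′ end the difference from the next band was 2.33 with windows of 250 bp, 2.59 with 1000 bp and 2.65 with each summit counted for its nearest end only, none past 0.05. At 3′ ends only, the difference from the optimal list was -1.44 with 1000 bp, no longer past it. The difference there from the next band, near 0 in all, changed sign to 0.655 with the nearest end only and 0.206 for regions over 1000 bp from every optimal summit. Exons against the next band passed the threshold for those distant regions, at -3.11. Introns against the optimal list missed it at 2.46 in the upper ranks of the band and 1.97 in the distant regions. The share between genes turned to -1.51 against the optimal list with 250 bp and to -0.164 against the next band with 1000 bp. It was -0.240 and -0.450 for regions matched in both replicates, a setting chosen after seeing the data. None of these shares between genes passed the test.

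With each replicate ranked alone, the differences from the optimal list ran from -5.34 to -2.10 at 5′ ends, where -2.10, without replicate 2, missed 0.05, and from -0.459 to -0.360 between genes. Those from the next band ran from 0.229 to 0.590 at 3′ ends only, from -3.01 to -1.67 in exons, where -3.01, without replicate 1, passed, and from -1.93 to -0.885 between genes. Differences from the optimal list kept direction and call at 3′ ends only, in exons and in introns. The cause of these changes was not tested.

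Genes added at the 3′ end numbered 503 with 250 bp and 516 with the nearest end only. The upper ranks of the band alone added 485 genes at 5′ ends and 435 at 3′ ends, from fewer regions. The share matched in both replicates was 64.4% within 100 bp, 92.1% within 500 bp, 89% by any overlap, 47.1% among the strongest 9156 of each list, 85.6% in the upper ranks and 84.9% for the distant regions. No paired analysis was possible because there was only 1 group of samples. Depth is unknown, signals of different lists share no scale, and matching in lists of 30000 regions is permissive.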
